A study of Homo sapiens with 8 samples.

Results

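The transcripts described here are those of 10 genes of transforming growth factor beta (TGF-beta) signaling, TGFB1, TGFB2, TGFBR1, TGFBR2, TGFBI, SMAD2, SMAD3, SMAD4, SMAD7 and SKIL. They are a list of gene names with no threshold on values, and all 10 were listed in both deposited tables, out of 16169 genes listed in either table. All 10 also passed the filter on low counts in both tables. RNA was sequenced from Hep3B cells, a human hepatocellular carcinoma (HCC) line, in 8 libraries, 2 for each of 4 conditions. The first table holds Hep3B and Hep3B labelled SOX4-/-, in which the transcription factor SOX4 was targeted with CRISPR/Cas9. The second table holds Hep3B given a control siRNA, the scramble siRNA of the study, and Hep3B given STAT6 siRNA against the transcription factor STAT6. The study describes 2 knockout lines, cultured with puromycin, and the labels do not say which line gave which library, so clone and puromycin cannot be told apart from the knockout. The labels do not say whether the libraries of a condition came from separate cultures, so the p-values measure only the spread between these libraries, which may be technical.

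TGF-beta ligands are secreted in a latent form, held in the extracellular matrix by latent TGF-beta binding proteins and released by integrins. The free ligand binds the type II receptor TGFBR2, which phosphorylates the type I receptor TGFBR1. TGFBR1 phosphorylates SMAD2 and SMAD3, which join SMAD4 and enter the nucleus to regulate transcription. SMAD7 blocks the receptor and SKIL (SnoN) represses SMAD-driven transcription, and both are themselves induced by the pathway. In hepatocytes TGF-beta is known for growth arrest and apoptosis, and in advanced liver cancer for migration and matrix production.

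The libraries held 16266282 to 25353113 expected counts each. Levels are given as CPM, counts scaled to library size after TMM normalization, computed within each table, so levels in the different tables are set side by side without a test. All 14 hepatocyte and liver cancer markers were at 1 CPM or more in all 8 libraries. The SOX4 transcript did not check the knockout label: it was at 798.7 and 265.9 CPM in Hep3B libraries 1 and 2 and at 297.9 and 301.6 CPM in the libraries labelled SOX4-/-. STAT6 was at 31.95 and 13.2 CPM in Hep3B and at 2.76 and 2.199 CPM in the libraries labelled SOX4-/-, and at 42.4 and 31.4 CPM with control siRNA against 9.92 and 5.98 CPM with STAT6 siRNA. A gene is called here when the quasi-likelihood test of edgeR gives an adjusted p below 0.05, adjusted by Benjamini-Hochberg over all genes of the table.

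The mean level of both ligands was higher in the libraries labelled SOX4-/-, most of all that of TGFB2, but neither passed the test over all genes. TGFB2, a ligand that binds TGFBR2 well only with the co-receptor betaglycan, was at 25.5 and 4.11 CPM in Hep3B libraries 1 and 2, from 449 and 78 counts. It was at 80.9 and 113 CPM in the libraries labelled SOX4-/-, from 2136 and 2055 counts. Both of these libraries lay above both Hep3B libraries, which themselves differed 6.19-fold. The mean level was 6.55-fold higher, and the log2 fold change was 2.71 (SE 0.76, adjusted p = 0.0771 by edgeR). TGFB2 was called without Hep3B library 1 (log2 fold change 4.50, adjusted p = 0.00105 by edgeR) and without Hep3B library 2 (1.92, adjusted p = 0.0238). Without either library labelled SOX4-/- it was not called (2.94 and 2.44, adjusted p = 0.200 and 0.288 by edgeR). DESeq2 called it with all libraries (log2 fold change 2.69, adjusted p = 0.00254).

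The sequence upstream of TGFB2 is shown because TGFB2 had the largest fold change of the 10 genes and because its promoter window holds a word of the SOX consensus. TGFB2 lies on chromosome 1 at 218345336 to 218444619 on the plus strand (RefSeq, GRCh38.p14), and the 250 bases before its start were at chr1:218345086-218345335. The same stretch is given for TGFBR1, on the plus strand of chromosome 9, which held such a word at chr9:99104863-99105112, before one of several RefSeq starts at 99105113, and which was not called. Capitals mark words of the SOX4 consensus on either strand, namely AACAAAG or AACAATG or ATCAAAG or ATCAATG or TACAAAG or TACAATG or TTCAAAG or TTCAATG.
TGFB2: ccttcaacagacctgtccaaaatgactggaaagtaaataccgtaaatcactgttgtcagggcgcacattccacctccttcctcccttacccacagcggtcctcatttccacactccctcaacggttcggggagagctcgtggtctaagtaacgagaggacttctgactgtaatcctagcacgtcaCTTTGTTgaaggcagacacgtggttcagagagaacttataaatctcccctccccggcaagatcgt
TGFBR1: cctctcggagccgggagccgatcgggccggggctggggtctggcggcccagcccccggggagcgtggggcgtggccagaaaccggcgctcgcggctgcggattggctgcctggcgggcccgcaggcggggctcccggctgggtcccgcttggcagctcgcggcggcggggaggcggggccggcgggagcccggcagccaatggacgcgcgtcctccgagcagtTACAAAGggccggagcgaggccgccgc

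In TGFB2 the word began 65 bases before the start, on the minus strand, and TATAAA, the TATA box word, began 29 bases before it, so the words did not overlap. In TGFBR1 the word began 27 bases before the start, on the plus strand. Over 300 bases around a start, a SOX4 word was in 5 of 25 windows of the 10 genes and in 20.4% of 35116 windows in RefSeq. TATAAA was in 2 of the 25 windows and in 11.5% of all. TTCNNNNGAA, the spaced palindrome of STAT6, was in 2 of the 25, both of TGFBR1, and in 6.44% of all. GTCTAGAC, the SMAD palindrome, was in 0 of the 25 and in 0.202% of all. Of the 5 windows with a SOX4 word, 1 was of TGFB2, 1 of SMAD3 and 3 of TGFBR1, of which 2 shared the same word. A match in letters is a description only.

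TGFB1, the most widely expressed ligand, was at 173 and 70.1 CPM in Hep3B and at 166 and 327 CPM in the libraries labelled SOX4-/-. Hep3B library 1 lay above the lower of these, so the groups overlapped. The log2 fold change was 1.02 (SE 0.53, adjusted p = 0.267 by edgeR), and of the alternatives run only leaving out Hep3B library 1 called it (1.76, adjusted p = 0.0427). The log2 fold change of TGFB1 was 0.51 without Hep3B library 2, 0.43 without library 2 of those labelled SOX4-/- and 0.57 with offsets for GC content and length. Transcripts of 3 listed genes on the opposite strand, HNRNPUL1, CCDC97 and TMEM91, overlap TGFB1, and the sources used here do not give the strand setting of the counting. On the TPM scale, which divides counts by transcript length, the TGFB1 level was above that of TGFB2 in every library. TGFB1 was at 151 and 68.2 TPM in Hep3B and at 162 and 283 TPM in the libraries labelled SOX4-/-. TGFB2 was at 12.4 and 2.23 TPM and at 43.8 and 54.4 TPM in the same libraries.

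The fitted log2 fold changes of the receptors had opposite signs, and neither receptor was called in the main test. The sign turned in 3 of 14 alternatives for TGFBR1 and in 0 for TGFBR2. TGFBR2, the type II receptor that binds the ligand, was at 24.5 and 6.96 CPM in Hep3B and at 29.99 and 37.9 CPM in the libraries labelled SOX4-/-. The groups did not overlap, but the Hep3B libraries were 3.51-fold apart. The log2 fold change was 1.11 (SE 0.58, adjusted p = 0.266 by edgeR), and of the alternatives run only leaving out Hep3B library 1 called TGFBR2 (2.23, adjusted p = 0.0122). Without Hep3B library 2 the log2 fold change was 0.47. TGFBR1, the type I receptor kinase, was at 25.03 and 41.7 CPM in Hep3B and at 27.1 and 27.3 CPM in the libraries labelled SOX4-/-, which lay between the Hep3B libraries. Its log2 fold change was -0.30 (SE 0.39, adjusted p = 0.670 by edgeR). In TPM, TGFBR2 was above TGFBR1 in both libraries labelled SOX4-/- (17.5 and 19.7 against 11.6 and 10.4). In Hep3B the order differed between the libraries, with TGFBR2 at 12.8 and 4.06 TPM and TGFBR1 at 9.76 and 18.0 TPM.

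TGFBI, a secreted matrix protein named for its induction by TGF-beta, had the most abundant transcript of the 6 genes compared per length, at 258 to 807 TPM in the first table. It was at 389.9 and 269 CPM in Hep3B and at 697 and 945 CPM in the libraries labelled SOX4-/-. The groups did not overlap, and the mean level was 2.49-fold higher. The log2 fold change was 1.32 (SE 0.43, adjusted p = 0.108 by edgeR), and DESeq2 called it (1.28, adjusted p = 0.0235). Leaving out any of the 4 libraries kept TGFBI higher, at log2 fold changes of 1.05 to 1.55, with no call by edgeR.

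Among the member SMADs, SMAD4 had the largest fold change and lay lower in both libraries labelled SOX4-/-. SMAD4, the partner shared by all receptor-activated SMADs, was at 115 and 109.7 CPM in Hep3B and at 72.9 and 65.7 CPM in the libraries labelled SOX4-/-. The level was 0.616 times that of Hep3B and the libraries of each condition were close, yet the test did not call it (log2 fold change -0.70, SE 0.32, adjusted p = 0.220 by edgeR). Leaving out single libraries gave log2 fold changes of -0.76 to -0.66, and offsets for GC content and length gave -0.43. SMAD2, a receptor-activated SMAD, was at 78.2 and 77.5 CPM in Hep3B and at 72.4 and 73.5 CPM in the libraries labelled SOX4-/-. The groups did not overlap, but the difference was small (log2 fold change -0.09, SE 0.32, adjusted p = 0.879 by edgeR).

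SMAD3, the other SMAD activated by TGFBR1, showed no common direction. It was at 328 and 88.2 CPM in Hep3B, 3.72-fold apart, and at 164 and 182 CPM in the libraries labelled SOX4-/-, which lay between them. The log2 fold change was -0.27 (SE 0.57, adjusted p = 0.802 by edgeR), and it was 0.91 without Hep3B library 1 and -0.93 without Hep3B library 2. SMAD3 has transcripts with an upstream start and transcripts with later starts. The later starts took 28.8% and 36.3% of its counts in Hep3B, as against 22.4% and 21.0% in the libraries labelled SOX4-/-. They took 12.4% and 10.9% with control siRNA and 5.99% and 8.41% with STAT6 siRNA. In both tables the share was lower in both perturbed libraries than in both controls. The shares of SMAD2 transcript NM_001135937 and TGFBR1 transcript NM_001130916 had the same pattern, so it was not particular to SMAD3. Shares of transcripts of a single gene are estimates from shared reads, and these differences were not tested.

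Neither inhibitor induced by the pathway was called. SMAD7, the inhibitory SMAD, was at 29.6 and 32.9 CPM in Hep3B and at 28.9 and 40.7 CPM in the libraries labelled SOX4-/- (log2 fold change 0.16, SE 0.36, adjusted p = 0.817 by edgeR). SKIL, the repressor, was at 109 and 115 CPM in Hep3B and at 81.0 and 82.6 CPM in the libraries labelled SOX4-/-. SKIL lay lower in both of these libraries and was not called (log2 fold change -0.45, SE 0.32, adjusted p = 0.407 by edgeR). With offsets for GC content and length its log2 fold change was -0.058.

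In all, 0 of the 10 genes were called in the libraries labelled SOX4-/- by edgeR, against 5.89% of the 14415 genes tested (4.50% higher and 1.39% lower). At an unadjusted p below 0.05 there were 2, TGFB2 and TGFBI, against 3752 of the 14415 genes tested. DESeq2 called the same 2, against 14.98% of all genes tested. Neither count is a result about the members. The libraries did not overlap for 6 of the 10 genes, 3 above and 3 below Hep3B, against 58.0% of all genes tested, a share close to that of the members. The count of called members was 3 without Hep3B library 1 (TGFB1, TGFB2 and TGFBR2), 1 without Hep3B library 2 (TGFB2) and 0 without either library labelled SOX4-/-. Of all genes tested, 15.3% were called without Hep3B library 1, 8.89% without Hep3B library 2 and 0.493% and 0.140% without either library labelled SOX4-/-. The Hep3B libraries were 2-fold or more apart for 4 of the 10 genes, TGFB1, TGFB2, TGFBR2 and SMAD3, each higher in library 1, and for 23.2% of all genes tested. The libraries labelled SOX4-/- were that far apart for 0 of the 10 and for 13.7% of all genes.

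**Figure D1:**
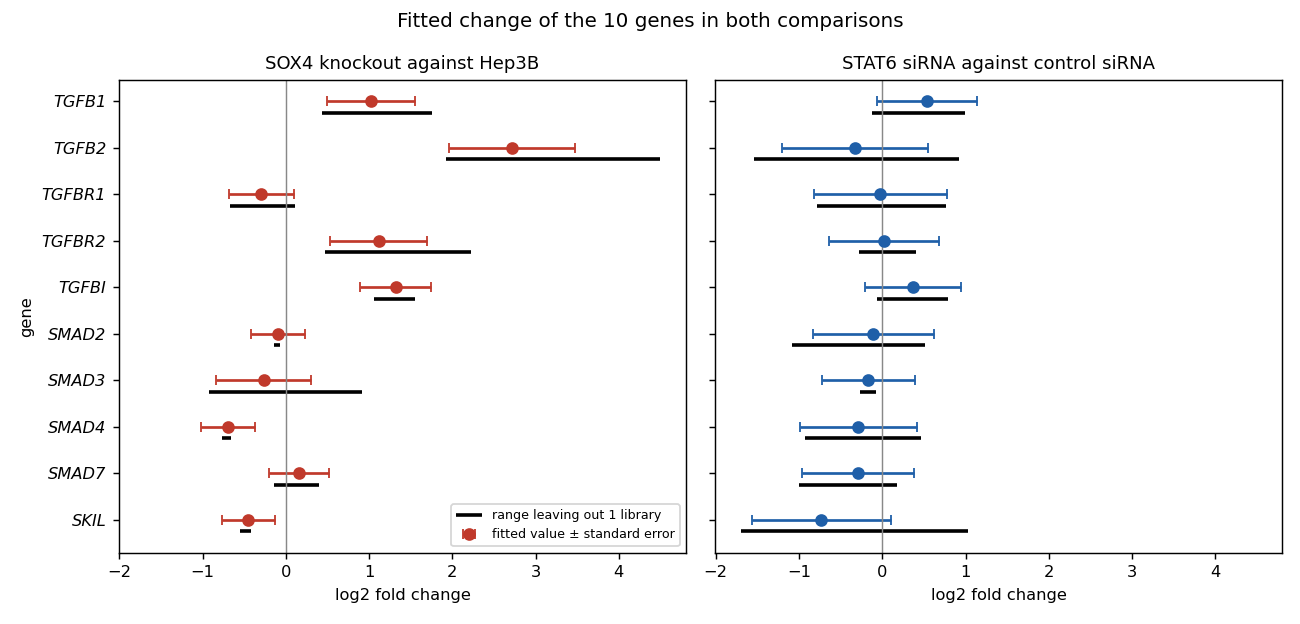
Fitted log2 fold change ± standard error of the 10 genes in each comparison (points), with the range of the fitted value when single libraries were left out (black bars). TGFB2 had the largest value, 2.71, and its range of 1.92 to 4.50 stayed above 0, whereas the SMAD3 range of -0.93 to 0.91 crossed it; with STAT6 siRNA the ranges of all genes but SMAD3 crossed 0.

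In the main edgeR test no member was called with STAT6 siRNA against control siRNA. STAT6 itself had the smallest unadjusted p of all genes (log2 fold change -2.22, SE 0.72) and was not called either. A member not called here is thus not shown to be unchanged. Of the alternatives run, edgeR called STAT6 only in the 2 fits with the library number as a block, a pairing that the labels do not state. With control siRNA and STAT6 siRNA, TGFB1 was at 223 and 139.8 CPM and at 360.2 and 167 CPM (log2 fold change 0.54, SE 0.60). TGFBI was at 915 and 590.5 CPM and at 1220.3 and 722 CPM (0.37, SE 0.58). TGFB2 was low, at 2.32 and 8.71 CPM and at 1.91 and 6.81 CPM (-0.33, SE 0.88), from 26 to 196 counts. Ligand and target transcripts thus overlapped between control siRNA and STAT6 siRNA, with library 1 the higher for TGFB1 and TGFBI and library 2 for TGFB2. TGFBR1 was at 2.94 and 7.15 CPM and at 2.94 and 6.97 CPM (-0.02, SE 0.80). TGFBR2 was at 36.0 and 23.99 CPM and at 36.1 and 24.6 CPM (0.02, SE 0.66). For both receptors the libraries of the conditions overlapped.

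SMAD2 was at 22.9 and 47.3 CPM with control siRNA and at 16.6 and 48.6 CPM with STAT6 siRNA (-0.11, SE 0.72). SMAD4 was at 21.6 and 51.3 CPM and at 19.3 and 40.5 CPM (-0.29, SE 0.71). SMAD7 was at 32.2 and 55.6 CPM and at 22.0 and 49.7 CPM (-0.29, SE 0.68). For these SMADs library 2 was the higher in both conditions. SKIL was at 12.7 and 73.1 CPM and at 13.3 and 38.3 CPM (-0.73, SE 0.84), the widest spread of the 10 with control siRNA. SMAD3 was at 132 and 136 CPM and at 128 and 111 CPM (-0.17, SE 0.55), the only member whose libraries did not overlap. That is 1 of 10 members, against 8.0% of the 13554 genes tested. The test called 0 of the 10 and 0 of all genes (0%), the adjusted p of each member was 1.00 by edgeR, and DESeq2 called 0 as well. At an unadjusted p below 0.05 there were 14 genes and 0 members. The libraries were 2-fold or more apart for 5 of the 10 genes with control siRNA and for 7 with STAT6 siRNA, against 33.6% and 49.9% of all genes tested.

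The step between the siRNA libraries moved with the GC content of the transcripts. Across all genes with a GC content, Spearman's rho between GC content and the log2 ratio of library 2 to library 1 was -0.757 with control siRNA and -0.821 with STAT6 siRNA, a description across genes of the same libraries. It was -0.088 in Hep3B and 0.287 in the libraries labelled SOX4-/-. SKIL (33.7% GC), TGFB2 (38.6%), TGFBR1 (38.7%), SMAD2 (39.5%) and SMAD4 (41.1%) were all higher in library 2, by 1.04 to 2.52 on the log2 scale with control siRNA and by 1.06 to 1.78 with STAT6 siRNA. TGFBR2 (47.3%), TGFBI (53.8%) and TGFB1 (63.5%) were higher in library 1 of both conditions. SMAD7 (57.4%) was higher in library 2, by 0.79 and 1.17. With offsets for GC content and length, the STAT6 siRNA test by edgeR called 0 of all genes and 0 members. With the library number as a block as well, it called 1 member, SMAD7, against 2.66% of all genes.

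**Figure D2:**
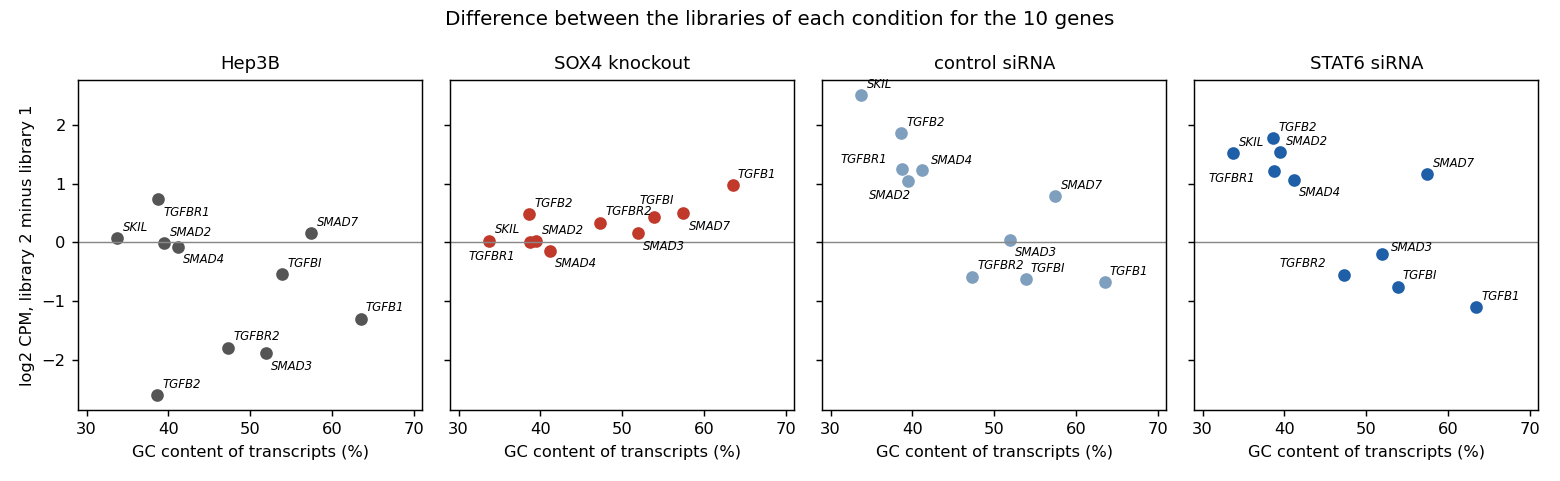
log2 CPM of library 2 minus library 1 (y axis) against the GC content of the gene's transcripts in percent (x axis) for the 10 genes in each condition. In both siRNA conditions the 5 genes below 42% GC lay above 0 and TGFBR2, TGFBI and TGFB1 below it, whereas in Hep3B TGFB2, SMAD3, TGFBR2 and TGFB1 lay lowest.

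Across the 4 conditions, TGFB2 was highest in the libraries labelled SOX4-/-, followed by Hep3B, control siRNA and STAT6 siRNA, and the last 3 overlapped. SMAD2, SMAD4, SKIL and TGFBR1 were higher in both conditions of the first table than in both siRNA conditions. For SMAD2, SMAD4 and SKIL Hep3B was above the libraries labelled SOX4-/-, and for TGFBR1 these overlapped. TGFBI was lowest in Hep3B, and the other conditions overlapped. TGFBR2 was also lowest in Hep3B on average, but Hep3B library 1 lay above the lower control siRNA library, and the other conditions overlapped. For TGFB1 and SMAD7 the order of the means ran through groups that overlapped. SMAD3 in the libraries labelled SOX4-/- was above control siRNA, which was above STAT6 siRNA, and Hep3B spanned them all. Tables and GC-related steps differ between these conditions, so table and treatment cannot be told apart in an order that crosses the tables.

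Whether the effects of SOX4 knockout and STAT6 siRNA differed was tested in a fit of all 8 libraries, and 0 of the 10 genes were called by edgeR, against 0.0683% of 14632 genes. TGFB2 was the only member at an unadjusted p below 0.05, as were 924 of the 14632 genes tested. Its difference of log2 fold changes was 2.97 (SE 1.19, adjusted p = 0.638 by edgeR). DESeq2 called 0 of the 10, against 0.998% of all genes. Without control siRNA library 1 the adjusted p of TGFB2 was 0.0362, with a difference of 3.63. For the other 9 genes the difference ranged from -0.51 (SMAD4) to 0.99 (TGFBR2).

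Other genes of the pathway were taken from 4 written lists of 95 genes, of which 80 were tested in the first table. In the libraries labelled SOX4-/- 7 rose and 1 fell by edgeR, or 10.0% of those tested, against 5.89% of all genes (4.50% higher and 1.39% lower). Of 19 tested ligands and genes of latency and release, 3 rose (15.8% of the list), with a list median log2 fold change of 0.85 beside 0.01 over all genes. LTBP4, a latent TGF-beta binding protein, rose from 0.908 and 3.96 CPM to 24.0 and 26.1 CPM (log2 fold change 3.36, SE 0.69, adjusted p = 0.0372). LTBP2, of the same family but without a known hold on latent ligand, rose from 25.5 and 20.8 CPM to 64.5 and 96.0 CPM (1.79, SE 0.38, adjusted p = 0.0407). ITGB6, a subunit of an integrin that frees latent TGF-beta, had 0 counts in both Hep3B libraries, and its counts were 48 and 17 in the libraries labelled SOX4-/- (adjusted p = 0.0363 by edgeR). Against a floor of 3 counts per library this was at least 8.38-fold higher, at a low level of 1.82 and 0.935 CPM. ITGB6 passed the filter on low counts only through the libraries labelled SOX4-/-, so it could only be called higher. It is 1 of the 3 and of the 7 genes counted above as risen.

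Of 14 other receptors and inhibitors, 1 rose (7.14%), with a median of 0.44. This was FST (follistatin), a secreted binder of activins, at 0.624 and 1.58 CPM in Hep3B and at 10.6 and 14.8 CPM in the libraries labelled SOX4-/- (log2 fold change 3.51, SE 0.63, adjusted p = 0.0279 by edgeR). Of 21 other SMADs and SMAD regulators 0 were called by edgeR and by DESeq2, and the median was -0.11. Of this list 2 had an unadjusted p below 0.05, against 3752 of the 14415 genes tested. With 5.89% called over all genes, 0 of 21 is not a result about this list.

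Of 26 tested TGF-beta target genes, 3 rose and 1 fell (15.4% called, against 5.89% of all genes), with a median of 0.72. At an unadjusted p below 0.05 there were 6 of the 26, against 3752 of the 14415 genes tested, so this list did not stand out by that count. TAGLN (transgelin), an actin-binding protein of smooth muscle, rose from 4.99 and 7.70 CPM to 87.1 and 51.0 CPM (log2 fold change 3.44, SE 0.46, adjusted p = 0.0153 by edgeR). TPM1, a tropomyosin, rose from 130 and 97.7 CPM to 370.0 and 528 CPM (1.98, SE 0.40, adjusted p = 0.0364). CDKN1A, the cell cycle inhibitor p21, rose from 75.6 and 76.1 CPM to 216 and 363 CPM (1.93, SE 0.39, adjusted p = 0.0374). HMOX1, the heme-degrading oxygenase that TGF-beta can induce, fell from 39.3 and 184 CPM to 12.5 and 16.4 CPM (-2.95, SE 0.69, adjusted p = 0.0498 by edgeR). The Hep3B libraries were far apart for HMOX1, and its log2 fold change was -1.45 without Hep3B library 2.

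Several of these calls lay near the threshold. HMOX1 was not called by edgeR without the filter on low counts (adjusted p = 0.0510) or with 10 counts in every library (adjusted p = 0.0556). With offsets for GC content and length, LTBP4, LTBP2, CDKN1A and HMOX1 were not called (adjusted p = 0.0779, 0.0625, 0.0532 and 0.0634 by edgeR). In a fit of all 8 libraries TPM1, CDKN1A and LTBP2 were not called (adjusted p = 0.0596, 0.0618 and 0.0836 by edgeR). Without either library labelled SOX4-/- none of the 8 was called by edgeR. The number of called genes over the 4 lists was 20 without Hep3B library 1 (24.7% of those tested, against 15.3% of all genes) and 15 without Hep3B library 2 (18.5% against 8.89%). It was 17 with DESeq2 (21.3% against 14.98%) and 4 with the offsets (5.0% against 3.34%).

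In the main edgeR test with STAT6 siRNA, 0 of 76 tested pathway genes were called and 0 had an unadjusted p below 0.05. DESeq2 called 0 as well. Their median log2 fold change was 0.01 beside -0.03 over all genes. The smallest unadjusted p among them was that of TAGLN, at 33.9 and 21.5 CPM with control siRNA and at 63.3 and 63.3 CPM with STAT6 siRNA (log2 fold change 1.19, SE 0.63, adjusted p = 1.00 by edgeR). COL4A2, a basement membrane collagen, was at 0.622 and 0.355 CPM and at 1.47 and 0.867 CPM (1.24, SE 0.84). SNAI1, the Snail repressor of E-cadherin, was at 1.30 and 0.667 CPM and at 2.28 and 1.32 CPM (0.86, SE 0.80). All 3 lay higher in both STAT6 siRNA libraries, as did 2.74% of the 13554 genes tested, without passing this test. They were picked by their small unadjusted p, which favors genes whose libraries do not overlap, so this is not a result about the pathway genes. COL4A2 had only 8 to 21 counts per library. With the library number as a block, edgeR called 1 of the 76, TAGLN, against 0.457% of all genes. With GC and length offsets and the block it called 7 of the 76 (9.21%), against 2.66% of all genes.

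Markers of other cell types also moved in the first table. The summed level of the 8 fibroblast and stellate markers was 9.93 to 13.1 CPM in Hep3B and 81.8 to 105 CPM in the libraries labelled SOX4-/-, where LUM (lumican) alone was at 85.5 and 54.2 CPM. COL3A1, DCN and ACTA2 of this list were not above the filter. The summed level of 5 blood and macrophage markers was 35.5 to 90.6 CPM and 189 to 441 CPM, mostly LYZ (lysozyme) and CD68, with PTPRC and CD163 not above the filter. The 4 endothelial markers summed to 0.770 CPM or less in every library. The hepatocyte and liver cancer markers summed to 12853 to 17499 CPM in Hep3B and 33103 to 55187 CPM in the libraries labelled SOX4-/-. The part of these marker genes in the pathway differences was not tested.

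The genes with the pattern most like a member over the 8 libraries were named by Pearson's r of log2 CPM, of the 8 libraries normalized together, among 10993 genes, as a description of libraries that share depth and GC-related steps. For TGFB2 they were WWTR1 (0.994), SEMA3A (0.992) and P3H2 (0.991). For TGFBI they were SLC12A8 (0.998), HYAL2 (0.996) and TRIOBP (0.991), and for SMAD4 they were BNIP2 (0.997), CEP120 (0.996) and PLEKHF2 (0.996).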

How the data were processed

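The authors deposited expected counts, estimated reads per RefSeq transcript and not normalized, in a table for each comparison. Transcripts summing to fewer than 10 over the 4 libraries were absent. The submitters' processing notes name STAR, Partek and hg38 without versions or roles, and the counting method and strand setting are not given in the sources used here. Libraries were grouped by their labels, and 0 columns were left without a library. The design had assumed plain counts. The expected counts were added up by gene, rounded to whole numbers and tested as planned with edgeR 4.0.16 (R 4.3.3; filterByExpr, TMM, glmQLFit with defaults, glmQLFTest), each table on its own, with Benjamini-Hochberg adjustment over all genes and a threshold of 0.05. The difference of the effects was a contrast over all 8 libraries. TMM factors ranged from 0.837 to 1.11, and the common dispersion was 0.145 and 0.243. Library totals of 16266282 to 25353113 limit the precision of low genes. TPM values used GENCODE transcript lengths, which covered 93.0% to 94.9% of the counts, for the 6 members whose lengths were not ambiguous. GC content was known for 13787 of 14415 and 12992 of 13554 genes. Promoter windows came from RefSeq and held all 10 genes.

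The members, lists and tests were chosen with earlier results of these data known. Genes named beside the members were the called pathway genes, with the 3 smallest unadjusted p where none was called, and the 3 most similar to each of the 3 members with the smallest p in the knockout comparison. The edgeR test was also run on simulated counts with known folds. These had no GC-related step and less spread than the siRNA libraries, and their outcome is not given here. The test was repeated with DESeq2 1.42.0, with upper-quartile or median-of-ratios factors, without the filter or with every library at 10 counts or more, with the library number as a block, with glmQLFit with legacy = FALSE, with GC and length offsets (mgcv 1.9.3), in 1 fit of all 8 libraries and without each library in turn.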

Additional observations from a re-analysis of the deposited data

How the results depend on the processing

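With 2 libraries a condition, single libraries decided most values of the 10 genes. Leaving out each library in turn, with the lone library assumed to vary like the others, gave 21 to 2298 called genes, 0 to 3 called members and 0 to 20 called pathway genes for the SOX4 knockout, and 1 to 119 genes and 0 to 1 members for the difference of the effects. The log2 fold changes that turned direction ranged, for the knockout, from -0.93 to 0.91 (SMAD3), -0.68 to 0.11 (TGFBR1), -0.15 to 0.40 (SMAD7) and -1.42 to 0.11 (SOX4). For STAT6 siRNA they ranged from -1.53 to 0.92 (TGFB2), -0.79 to 0.76 (TGFBR1), -0.28 to 0.41 (TGFBR2), -1.08 to 0.52 (SMAD2), -0.92 to 0.47 (SMAD4), -0.998 to 0.18 (SMAD7), -1.70 to 1.03 (SKIL), -0.12 to 0.99 (TGFB1) and -0.061 to 0.79 (TGFBI). For the difference they ranged from -0.85 to 1.01 (SMAD3), -0.22 to 1.16 (TGFB1), -1.15 to 0.34 (TGFBR1), -0.69 to 0.84 (SMAD2), -0.09 to 1.01 (SMAD7), -1.56 to 1.09 (SKIL) and -1.25 to 0.070 (SMAD4).

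For the knockout, DESeq2 called 2160 genes, 2 members and 17 pathway genes, GC and length offsets called 481 genes and 4 pathway genes, and a minimum of 10 counts in every library called 518 genes. For the difference these called 146, 42 and 1 genes, and upper-quartile factors called 5. GC and length offsets turned TGFBR1 to 0.081, SMAD2 to 0.033 and SMAD7 to -0.078 for the knockout, TGFBR1 to 0.17 for STAT6 siRNA, and SMAD2 to 0.094 and SKIL to -0.062 for the difference. For STAT6 siRNA, TGFBR1 turned to 0.035 with median-of-ratios factors and with DESeq2 and to 0.013 with all 8 libraries in 1 fit, and TGFBR2 turned to -0.016 with upper-quartile factors. SMAD2 turned to 0.038 for the difference with upper-quartile factors. The causes were not tested.

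The labels give the libraries numbers but no shared batch, and with 2 pairs the numbers cannot be taken as pairing. Over genes, the difference of library 1 and 2 correlated at -0.085 between Hep3B and SOX4 knockout and at 0.873 between control and STAT6 siRNA. The library number as a replicate block called 982 genes, 1 member (TGFB2, log2 fold change 3.19, adjusted p = 0.0378 by edgeR) and 10 pathway genes for the knockout, 62 genes, 0 members and 1 pathway gene (TAGLN, 1.23, adjusted p = 1.41e-05 by edgeR) for STAT6 siRNA, and 102 genes for the difference. The block turned SMAD3 to 0.021 for the knockout, and SMAD2 to 0.0033, SMAD3 to 0.079 and SKIL to -0.11 for the difference. Offsets with the block called 200 genes and 0 pathway genes for the knockout, 36 genes for the difference, and 360 genes, 7 pathway genes with TAGLN among them (0.98, adjusted p = 3.90e-10 by edgeR) and 1 member for STAT6 siRNA, the member being SMAD7 (-0.50, adjusted p = 0.0134 by edgeR). They turned TGFBR1 to 0.10, SMAD2 to 0.0013, SMAD3 to 0.031 and SMAD7 to -0.082 for the knockout, TGFBR1 to 0.18 for STAT6 siRNA, and SMAD2 to 0.059, SMAD3 to 0.11 and SKIL to -0.17 for the difference. The block changed no other call among the members.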
